A study of Rattus norvegicus with 6 samples.

Results

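The 10 genes described here, Atf4, Ddit3, Trib3, Asns, Chac1, Sesn2, Psat1, Phgdh, Shmt2 and Mthfd2, belong to the transcriptional response that the factor ATF4 directs and to the serine and mitochondrial folate pathway that it feeds. They were chosen by symbol: every probe set annotated with exactly 1 of these symbols was taken, which gave 13 probe sets of the 20826 on the array that carried a single symbol, and 10 of 14217 genes. Each gene had 1 probe set, except Trib3 with 3 and Sesn2 with 2. Expression was measured on Affymetrix rat arrays, as 1 signal per probe set, in smooth muscle cells of the rat aorta: 3 samples of cells that had been under laminar flow (shear stress 14 dyn/cm2, 24 h, parallel-plate chamber) and 3 static samples. Both groups were cells of passage 3 to 5, grown with 10% serum and then synchronized without it, on 0.1% albumin, over 24 h. The labels number the cultures as pairs 1 to 3, each of 1 shear and 1 static culture. What a pair shared is not stated, and neither are separate animals, so the p-values rest on a spread between samples that may be technical only.

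ATF4 is a basic leucine zipper factor whose protein is made when the initiation factor eIF2 is phosphorylated, by kinases that sense unfolded protein in the endoplasmic reticulum, missing amino acids, double-stranded RNA or heme deficiency. With partners of the C/EBP family it switches on genes for amino acid synthesis and uptake, for glutathione turnover and, when the stress lasts, the factor CHOP (gene Ddit3). Serine made from a glycolytic intermediate by PHGDH, PSAT1 and PSPH gives its carbon to mitochondrial folate through SHMT2 and MTHFD2.

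Across the whole array, 52.8% of 21729 probe sets passed an adjusted p of 0.05 between shear and static cells in a paired limma fit, 24.3% as risen and 28.5% as fallen. Risen ones made up 46.1% of the calls, or 59.1% after median centring. Signals of array pairs correlated by 0.882 to 0.906 between the groups, by 0.980 to 0.993 among shear arrays and by 0.987 to 0.991 among static arrays. Shear arrays 2 and 3 correlated by 0.993, and shear array 1 with either of them by 0.980 to 0.981. Smooth muscle markers were measured, and of 8 tested 5 fell under shear and 3 did not pass, with a median log2 fold change of -0.92. Acta2, smooth muscle actin, was at 740.0, 852.3 and 916.0 in shear cells and 1656.7, 1970.0 and 1806.7 in static cells, and desmin (Des) stayed between 16.2 and 18.4 on every array. Of 9 endothelial markers 1 fell (Egfl7, -0.40) and 3 did not pass, while Pecam1, Vwf, Kdr, Tie1 and Nos3 stayed at or below 8.6 on every array, under the filter. Of 7 leukocyte markers Cd68 (0.70) and Coro1a (0.44) rose, Cd14 (-0.68) fell and Cd3e did not pass, while Ptprc, Itgam and Laptm5 stayed at or below 10.1, under the filter. Precision is limited by the number of arrays. In bulk cultures such as these, fewer cells of a type and less RNA per cell cannot be told apart.

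Of the 13 probe sets, 4 rose under shear, 1 fell and 8 did not pass, and all 13 had passed the filter on low signal. Of all tested probe sets 52.8% were called. The 4 were those of Trib3 and Atf4 and the 1 was that of Psat1. By gene, 2 of 10 rose and 1 fell, against 27.8% and 30.1% of all genes tested (57.9% together). The shear and static signals did not overlap in 5 of the 13, above in 4 and below in 1, against 60.0% of all tested probe sets (27.1% above and 32.9% below). Without the pairing in the fit the members' counts were the same, beside 52.6% of all tested probe sets called. By gene, with the brightest probe set of each, the median log2 fold change of the 10 was -0.10, against -0.05 over all genes tested. The pairs disagreed in direction for many of these probe sets. Of the 13, 8 were higher under shear in pair 1 and lower in both other pairs, a pattern held by 8.39% of all tested probe sets.

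**Figure D1:**
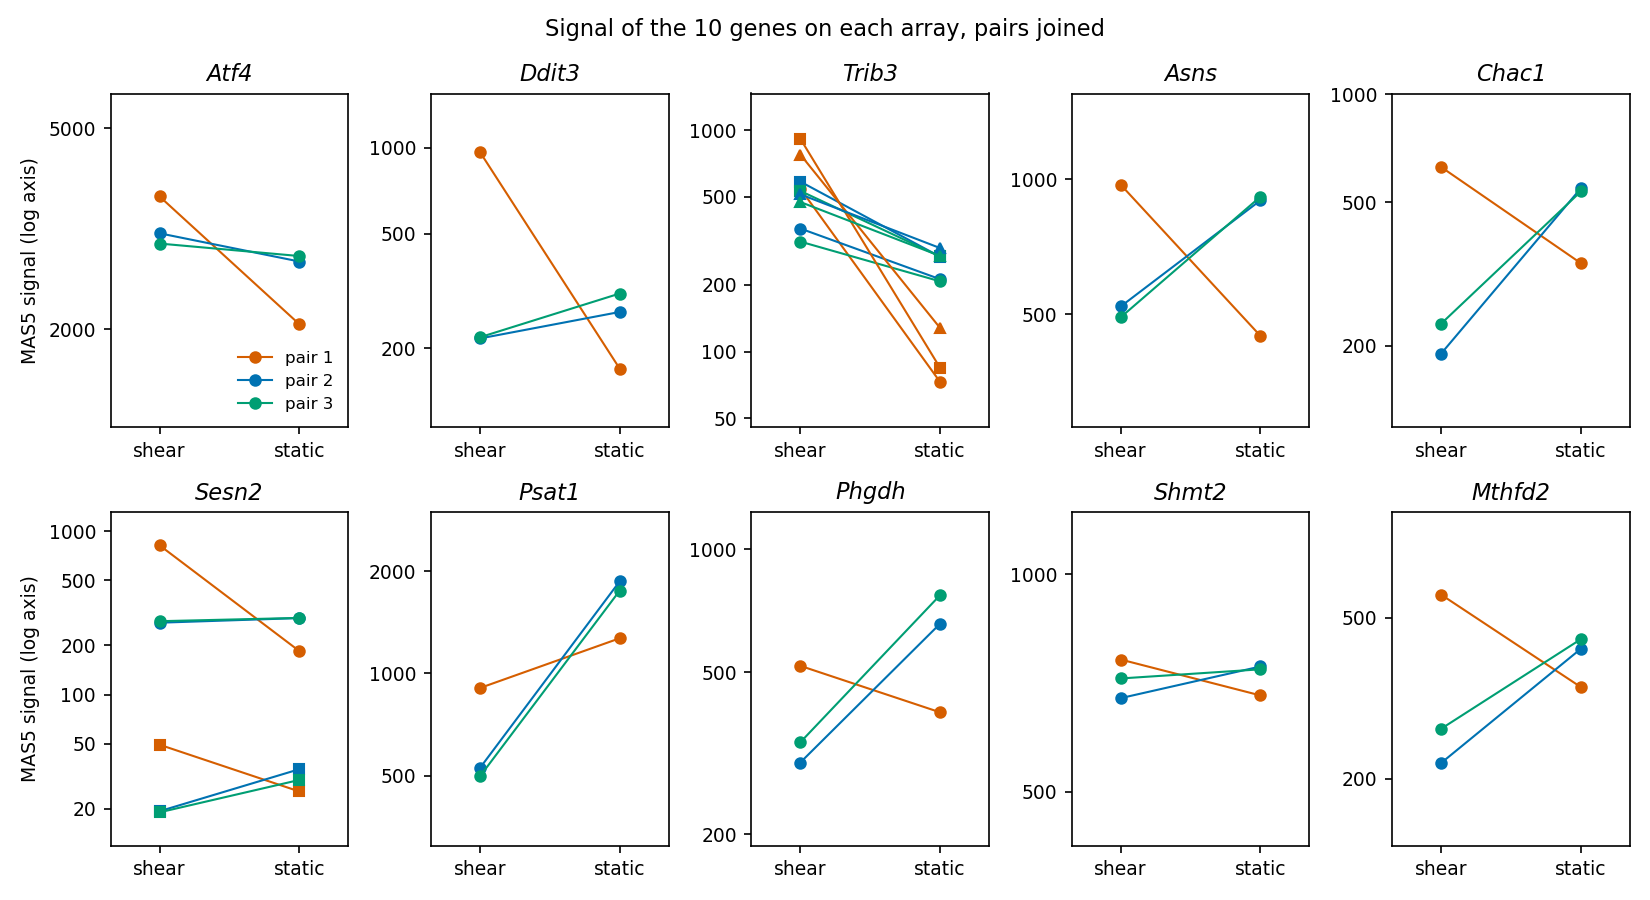
MAS5 signal (log axis) of the 10 genes on each array, shear left and static right, with the 2 arrays of a pair joined and coloured by pair; squares and triangles are further probe sets of Trib3 and Sesn2. Pair 1 (orange) starts above pairs 2 and 3 in shear cells and ends below them in static cells in every panel, for example Ddit3 at 965.6 and 169.6.

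Atf4 itself (probe set 1367624_at) had signals of 3662.7, 3095.8 and 2954.2 in shear cells of pairs 1 to 3, against 2044.4, 2721.8 and 2790.5 in static cells. The groups did not overlap, but shear arrays 2 and 3 lay only slightly above static arrays 2 and 3. Differences on the log2 scale, taken after 16 was added to each signal, were 0.84, 0.18 and 0.08 in pairs 1 to 3, a fitted change of 0.37 (limma adjusted p = 0.046, 95% interval 0.06 to 0.67). The call was borderline: it was lost under 5 of 8 other settings, with 0.22 and an adjusted p of 0.25 after quantile normalization. With any 1 pair left out Atf4 still passed, though without pair 1 the fold change was only 0.13.

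Ddit3 encodes CHOP, the factor that ATF4 induces under prolonged stress. Its signal (1369590_a_at) was 965.6, 216.1 and 218.2 in shear cells and 169.6, 267.3 and 310.0 in static cells. Shear array 1 was the highest of the 6 and static array 1 the lowest, while in pairs 2 and 3 the shear signal was the lower one. The differences of 2.40, -0.29 and -0.48 averaged 0.55 (95% interval -0.58 to 1.67, adjusted p = 0.38). Within pair 1 the shear signal was 5.69 times the static one, which put Ddit3 at the 99.6th percentile of all tested probe sets in that pair and at the 37.4th and 26.0th in pairs 2 and 3. Without pair 1, the direction turned (-0.38, adjusted p = 0.00094). Fits without pair 1, here and below, leave out the pair that was seen to disagree and keep 2 pairs that were alike. Their small p-values follow in part from that choice, rest on 1 residual degree of freedom and do not measure replication.

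Trib3, a pseudokinase induced by ATF4 and CHOP that dampens ATF4 in turn, was the member that rose most, and it rose on each of its 3 probe sets. On 1370695_s_at its signal was 913.2, 585.1 and 531.2 in shear cells against 84.6, 268.3 and 268.9 in static cells. The groups did not overlap, and static array 1 stood well below the other static arrays. The pairs differed by 3.21, 1.08 and 0.94, a log2 fold change of 1.74 (adjusted p = 0.0062, 95% interval 0.85 to 2.64). The probe sets 1370694_at (1.31, adjusted p = 0.016) and 1386321_s_at (1.33, adjusted p = 0.0067) also had pair 1 highest. The probe set 1370694_at is annotated with the same source sequence as 1370695_s_at, so the readings are not independent. Without the filter on low signal, 1370694_at no longer passed (adjusted p = 0.053). In pairs 2 and 3, where most other members were lower under shear, Trib3 was 1.51 to 2.18 times higher. Without pair 1 the 3 fold changes were 1.01, 0.64 and 0.77 and each passed.

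Promoters were searched because ATF4 acts through a defined element, the C/EBP-ATF response element. The window of 300 bases, from 250 before to 50 after the annotated start, was available for all 10 genes from RefSeq on build GRCr8. The core of the element was searched as TGATGNAA on both strands (TTNCATCA on the other), and it occurred in 2 of 10 windows, those of Trib3 and Chac1, against 3.98% of 33469 windows of all genes. The ER stress element, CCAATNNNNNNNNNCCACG, searched on both strands, occurred in 0 of 10 and in 0.0657% of all, so no matches of the motifs overlapped in these genes. The windows of Trib3 (chr3:161275484-161275783, minus strand), Chac1 (chr3:126795881-126796180, plus strand) and Psat1 (chr1:222645359-222645658, minus strand) are shown 5′ to 3′ because these members differ most in direction in pairs 2 and 3. Capitals mark the core of the element, at -21 to -14 in Trib3 and at -167 to -160 in Chac1, and Psat1 has none. A match is a description of the letters and not a site, and sites outside this window were not searched.
Trib3: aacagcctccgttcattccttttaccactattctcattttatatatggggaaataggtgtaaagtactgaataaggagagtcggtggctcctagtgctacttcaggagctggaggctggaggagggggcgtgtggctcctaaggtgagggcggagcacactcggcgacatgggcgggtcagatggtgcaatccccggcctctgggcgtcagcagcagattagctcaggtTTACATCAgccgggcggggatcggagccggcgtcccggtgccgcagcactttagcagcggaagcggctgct
Chac1: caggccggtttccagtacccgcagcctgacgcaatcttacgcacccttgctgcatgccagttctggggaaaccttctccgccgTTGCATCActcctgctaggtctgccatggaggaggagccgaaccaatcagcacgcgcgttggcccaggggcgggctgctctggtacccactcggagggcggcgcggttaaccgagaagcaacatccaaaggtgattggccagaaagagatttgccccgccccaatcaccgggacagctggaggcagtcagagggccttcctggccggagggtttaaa
Psat1: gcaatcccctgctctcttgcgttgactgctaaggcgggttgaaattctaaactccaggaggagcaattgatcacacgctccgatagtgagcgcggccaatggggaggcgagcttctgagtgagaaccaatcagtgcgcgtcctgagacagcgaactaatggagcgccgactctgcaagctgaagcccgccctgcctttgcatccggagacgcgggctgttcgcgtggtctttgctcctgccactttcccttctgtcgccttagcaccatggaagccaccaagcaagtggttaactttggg

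Chac1, which degrades glutathione and is a target of both ATF4 and CHOP, carries the same core as Trib3 in its window but did not share its direction outside pair 1. Its signal (1389573_at) was 627.2, 190.2 and 230.3 in shear cells and 339.1, 547.4 and 536.4 in static cells. Shear array 1 was the highest of all 6 arrays, whereas shear arrays 2 and 3 were the lowest. The differences were 0.86, -1.45 and -1.17, and the log2 fold change of -0.59 did not pass (95% interval -1.47 to 0.30, adjusted p = 0.23). Without pair 1 it was -1.31 and passed (adjusted p = 1.0e-10).

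Asns, asparagine synthetase (1387925_at) and a classical target of the amino acid branch, had signals of 973.1, 519.8 and 491.6 in shear cells and 446.6, 898.0 and 915.1 in static cells. Shear array 1 was close to static arrays 2 and 3, and static array 1 was close to shear arrays 2 and 3, so the groups overlapped fully. The differences of 1.10, -0.77 and -0.88 gave a log2 fold change of -0.18 (95% interval -0.96 to 0.60, adjusted p = 0.68), against -0.82 without pair 1 (adjusted p = 2.7e-09). Without pair 2 or pair 3 its sign turned, at 0.11 and 0.16.

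Sesn2, sestrin 2, restrains the growth kinase complex mTORC1 when leucine is short and is also a p53 target. Its brighter probe set (1391607_at) gave 820.3, 275.5 and 281.4 in shear cells and 184.7, 294.1 and 294.7 in static cells. Pairs 2 and 3 were nearly level, at -0.09 and -0.06, while pair 1 was 2.06 higher under shear, and the log2 fold change of 0.64 did not pass (95% interval -0.24 to 1.51, adjusted p = 0.19). Without pair 2 it passed at 1.00 (adjusted p = 0.047), and without pair 1 it was -0.08. The dim probe set 1396901_at, at 49.3, 19.3 and 19.0 in shear cells and 25.5, 34.9 and 30 in static cells, had differences of 0.65, -0.53 and -0.39 and did not pass (adjusted p = 0.76), though without pair 1 it did (-0.46, adjusted p = 0.014).

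Psat1, the transaminase that makes phosphoserine, was the only member of the serine pathway, and of the 10 genes, to fall in the fit over 3 pairs. Its signal (1372665_at) was 905.1, 526.3 and 497.3 in shear cells and 1267.8, 1865.2 and 1751.2 in static cells. Every shear array lay below every static array. The pairs differed by -0.48, -1.79 and -1.78, a log2 fold change of -1.35 (adjusted p = 0.0018, 95% interval -1.89 to -0.81). It passed under each of the 8 other settings and with any 1 pair left out. In pair 1 the shear signal was 0.714 of the static one, in pairs 2 and 3 it was 0.282 and 0.284.

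Phgdh, the dehydrogenase that opens serine synthesis, followed Psat1 in pairs 2 and 3 but not in pair 1. Its signal (1367811_at) was 518.0, 300.0 and 336.3 in shear cells and 398.4, 657.3 and 772.4 in static cells. The differences were 0.37, -1.09 and -1.16. The log2 fold change of -0.63 did not pass (95% interval -1.25 to -0.01, adjusted p = 0.083), and without pair 1 it was -1.13 and passed (adjusted p = 8.4e-11). Psph, the phosphatase that completes the pathway and was looked at by name after values had been seen, had differences of 1.32, 0.23 and 0.21 and rose by 0.59 (adjusted p = 0.045). That call was borderline, lost under 5 of 8 other settings (adjusted p up to 0.10). It was kept with any 1 pair left out, though without pair 1 the change was only 0.22.

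Of the mitochondrial folate enzymes, neither Mthfd2 nor Shmt2 passed, and the spread between pairs was wider for Mthfd2. Mthfd2 (1372808_at) had 569.7, 218.7 and 265.7 in shear cells and 336.8, 418.7 and 442.2 in static cells. Its differences were 0.73, -0.89 and -0.70, with a log2 fold change of -0.29 (95% interval -0.93 to 0.35, adjusted p = 0.42), or -0.80 without pair 1 (adjusted p = 8.4e-08). Shmt2 (1388695_at), which passes the serine carbon to folate, had 762.3, 674.1 and 717.7 in shear cells and 679.9, 745.6 and 738.9 in static cells. Its log2 fold change was -0.01, the 95% interval of -0.21 to 0.20 was the narrowest of the 13, and its pairs differed by 0.16, -0.14 and -0.04.

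**Figure D2:**
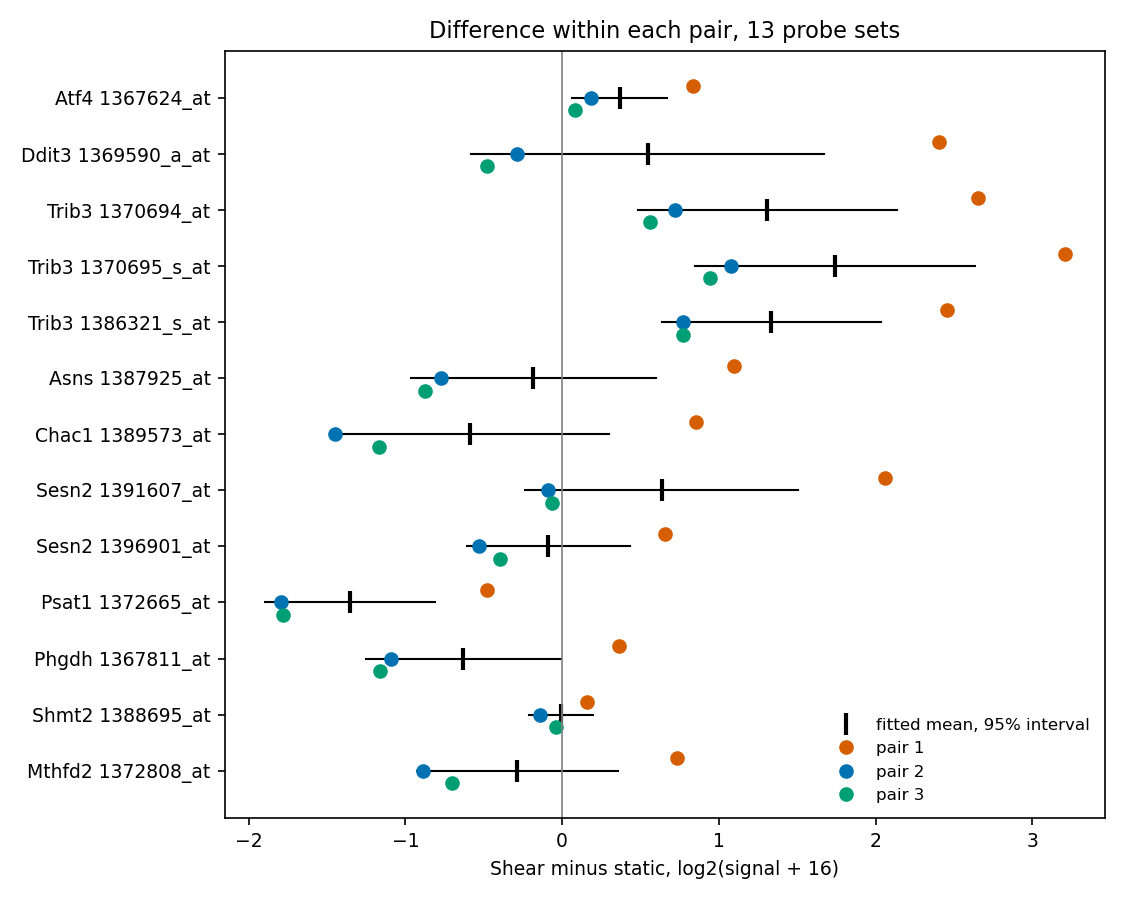
Shear minus static difference on the log2(signal + 16) scale for each of the 13 probe sets, with pairs 1 to 3 as coloured points and the fitted mean with its 95% interval as a black tick and line. Pair 1 lies right of pairs 2 and 3 in all 13, and pairs 2 and 3 lie within 0.285 of each other.

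The disagreement had a regular form. In all 13 probe sets shear array 1 was the highest of the 3 shear arrays, and in all 13 static array 1 was the lowest of the 3 static arrays. Over all tested probe sets the 2 conditions held together in 15.8%, the first alone in 44.8% and the second alone in 37.6%. Both cultures of pair 1 therefore departed from the other cultures of their group, in opposite directions. For Ddit3 the departure was larger in the shear culture, which lay 2.07 above the mean of shear arrays 2 and 3 on the log2 scale, while the static culture differed from static arrays 2 and 3 by -0.71. For Trib3 on 1370694_at the shear culture lay 0.67 above, while the static one differed by -1.34.

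Pair 1 exceeded the mean of pairs 2 and 3 by a median of 1.68 over the 13 probe sets, against 0.05 over all tested probe sets. For 11 of the 13 the excess lay between the percentiles 99.2406 and 99.9954 of all tested probe sets, for Atf4 (0.70) at the 95.8th and for Shmt2 (0.25) at the 72.9th. Pairs 2 and 3 differed from each other by a median of 0.10 over the 13, against 0.17 over all. With a single pair of this kind the excess could not be tested, and it is described only. Fitted without pair 1, 4 of the 13 probe sets rose and 7 fell, against 26.8% and 33.1% of all tested probe sets (59.9% together). The 7 were those of Ddit3, Asns, Chac1, Psat1, Phgdh and Mthfd2 and the dim one of Sesn2. That fit rests on 2 pairs and 1 residual degree of freedom, so its p-values lean on the variance borrowed from other probe sets. The pair left out was the one seen to disagree, so the closeness of the remaining pairs was known beforehand.

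**Figure D3:**
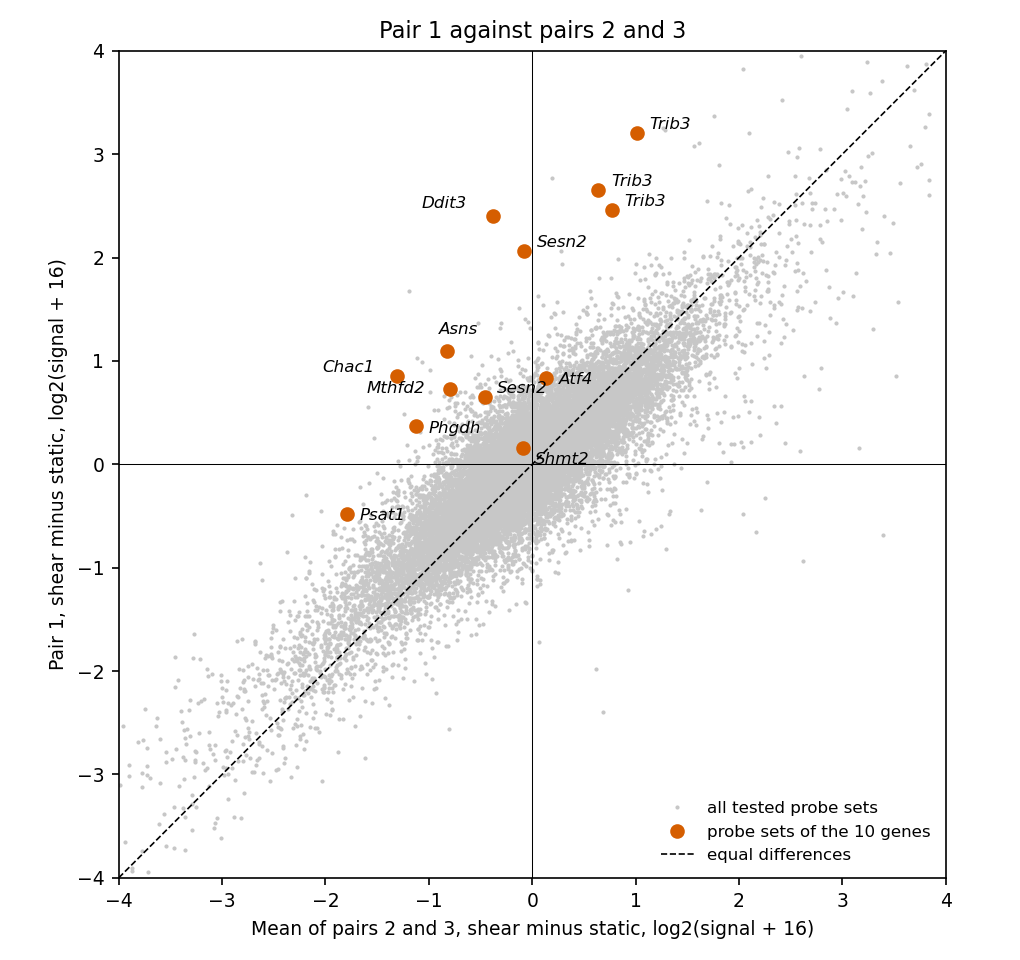
Shear minus static difference in pair 1 (vertical) against the mean of pairs 2 and 3 (horizontal), both on the log2(signal + 16) scale, for all tested probe sets in grey (37 lie outside the axes) and the 13 in orange; the dashed line marks equal differences. The 13 lie above the line, 8 of them in the upper left, where pair 1 and the others have opposite signs, Trib3 and Atf4 in the upper right and Psat1 in the lower left.

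Markers of other cell types and signs of RNA quality were read on the same arrays. The fibroblast marker Dpt was 38.3, 186.1 and 243.5 in shear cells and 26.3, 137.4 and 152.3 in static cells, low on both arrays of pair 1. Of the 8 fibroblast markers, 2 rose, 4 fell and 2 did not pass, and their summed signal was 4339, 7162.2 and 7325.4 in shear cells and 5327.9, 7767 and 7495.9 in static cells. The 7 leukocyte markers with a probe set summed to 127.8, 175.1 and 172.3 in shear cells and 177.3, 239.8 and 239.1 in static cells. The 8 smooth muscle markers summed to 4037.2, 4141.1 and 4037.7 in shear cells and 5066.1, 5692.1 and 5243.9 in static cells. By these sums, pair 1 was the lowest of its group for fibroblast, leukocyte and smooth muscle markers in shear and static cells. Sums of signal weigh the brightest genes most and do not show that each marker was lowest. For smooth muscle markers in shear cells, pairs 1 and 3 were nearly equal. The 9 endothelial ones summed to 160.3, 175.8 and 163.2 in shear cells and 220, 195.4 and 203.9 in static cells, with pair 1 lowest in shear and highest in static cells. As a sign of RNA quality, Gapdh probe sets at the 3′ end exceeded those at the 5′ end, on the log2 scale, by 0.162, 0.150 and 0.157 in shear cells and 0.155, 0.173 and 0.171 in static cells (exact permutation p = 0.3). For beta-actin this ratio was 0.365, 0.421 and 0.394 in shear cells and 0.293, 0.250 and 0.221 in static cells (exact permutation p = 0.1, the smallest that 3 against 3 allow). The part of these in the results was not tested.

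The genes of eIF2 signalling, a list that includes Ppp1r15a, itself induced by ATF4, had close medians in pairs 1 to 3, at 0.16, 0.12 and 0.14. Of the 17, 0 had the pattern of pair 1 up and the others down, against 7.79% of all genes tested. For this and the following lists, the share of all genes tested that rose was 27.8% and that fell 30.1%. These shares are from the fit over 3 pairs. Without pair 1, 26.8% of all tested probe sets rose and 33.1% fell, and shares by gene were not counted for that fit. Without pair 2 or pair 3, 4017 or 3876 of 21729 probe sets rose and 4754 or 4565 fell. Of the 17 genes of eIF2 signalling, 7 rose, 3 fell and 7 did not pass, with a median of 0.11, and without pair 1 5 fell. Ppp1r15a, the phosphatase subunit that ATF4 and CHOP induce to restore translation, had 965.8, 706.5 and 715.6 in shear cells against 126.1, 128.8 and 138.7 in static cells. It rose by 2.45 (adjusted p = 5.9e-06) and its groups did not overlap. Impact, which restrains the amino acid sensing kinase GCN2, had 820.3, 1033.0 and 911.2 in shear cells against 165.1, 158.8 and 146.4 in static cells. It rose by 2.44 (adjusted p = 3.1e-06), and its 3 further probe sets by 1.12 to 2.71. Eif2ak3, the ER stress kinase PERK, rose by 1.09 (adjusted p = 0.00014). Eif2b2, a subunit of the eIF2 exchange factor, fell by 1.16 and the mitochondrial protease Oma1 by 0.69 (-0.40 with 64 added). Gcn1, a GCN2 activator, fell by 0.41, a call lost under 4 of 8 other settings, among them the fit without the replicate block (adjusted p = 0.11), and without pair 2 or pair 3.

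Of 26 other targets of ATF4 and CHOP tested, 10 rose, 8 fell and 8 did not pass, with a median of 0.05, and without pair 1 14 fell. The stress hormone Gdf15 had 346.3, 216.2 and 190.9 in shear cells against 7.4, 15.5 and 25.3 in static cells and rose by 3.05 (adjusted p = 6.0e-05), a fold that depends on the value added before the log since static signals were low. With 64 added in place of 16 it was 1.95. The cystine transporter Slc7a11 had differences of 5.08, 4.43 and 4.43 and the leucine transporter Slc7a5 of 2.11, 1.75 and 2.13. The largest falls of the list that had 1 sign in all pairs were those of Pck2, Gpt2 and Aldh18a1. Pck2, which makes phosphoenolpyruvate in mitochondria, had 134.4, 60.7 and 67.1 in shear cells against 275.4, 497.4 and 464.3 in static cells (-2.08, adjusted p = 0.00080). Gpt2, alanine aminotransferase, fell by 1.79 (-1.12 with 64 added) and Aldh18a1, which starts proline synthesis, by 1.78. In this list 7 of 26 genes were higher under shear in pair 1 and lower in pairs 2 and 3, or 26.9%, against 7.79% of all genes tested.

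Serine, glycine and one-carbon genes beside the members numbered 21 tested, of which 9 rose, 9 fell and 3 did not pass, with a median of -0.01. The fallen count was 3 after median centring and 3 without pair 2 or pair 3, and 5 after quantile normalization or with no filter. Aldh1l2, the mitochondrial folate enzyme that acts beside MTHFD2, had 37.2, 24.0 and 30.4 in shear cells against 242.6, 382.7 and 439.6 in static cells and fell by 2.96 (adjusted p = 1.9e-05). Its shear signals were low, and over the 8 other settings its fold change ranged from -3.47 to -2.12. The cytosolic folate enzyme Mthfd1 fell by 1.72 and thymidylate synthase Tyms by 2.06 (-1.35 with 64 added). Mthfd2l, the relative of Mthfd2, had 101.6, 113.5 and 114.2 in shear cells against 52.5, 49.4 and 40.6 in static cells and rose by 0.99 (adjusted p = 0.00037), or by 0.64 with 64 added. Aldh1l1, the cytosolic counterpart of Aldh1l2, rose by 1.17 (0.65 with 64 added) and Mat2a, which makes S-adenosylmethionine, by 0.93.

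The aminoacyl-tRNA synthetases, many of which are ATF4 targets, showed the pair pattern in 9 of 19 genes (47.4%), against 7.79% of all genes tested. Their medians were 0.41, -0.42 and -0.50 in pairs 1 to 3. In the fit 3 rose, Nars1 (0.60), Farsa (0.38) and Hars1 (0.32), and 5 fell, among them Mars1 (-1.11), Farsb (-0.63) and Iars1 (-0.58), while 11 did not pass. Without pair 1 13 fell, beside 33.1% of all tested probe sets in that fit. Without pair 2 or pair 3 1 rose and 2 fell. The calls of Farsa, Hars1, Farsb and Iars1 were lost without pair 2 and without pair 3. Targets of the other ER stress arms, ATF6 and XBP1, had medians of 0.01, -0.18 and -0.15 in the pairs. The pattern was held by 4 of 19 (21.1%), against the same 7.79%. Of these 19, 5 rose and 4 fell, while 10 fell without pair 1, and 3 and 2 rose without pair 2 and pair 3. The chaperone Hspa5 rose by 0.42 (0.25 after quantile normalization) and the cochaperones Dnajb9 by 1.69 and Dnajc3 by 0.24, whereas Pdia4 (-1.02), Creld2 (-0.90) and Pdia6 (-0.42, or -0.27 after median centring) fell. The Dnajc3 call was lost after quantile normalization, with no intensity trend and without pair 2 or pair 3.

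Of 5 paralogues of the members, 3 fell and 2 did not pass. Without pair 1 Trib1 rose and 2 fell. Trib2, a pseudokinase like Trib3, had 46.2, 45.7 and 48.8 in shear cells against 289.7, 288.7 and 313.5 in static cells (-2.32, adjusted p = 3.9e-06), a direction opposite to Trib3 and alike in every pair. Over the 8 other settings the fold change of Trib2 ranged from -2.64 to -1.70. Sesn3 fell by 0.94 (-0.51 with 64 added) and Sesn1 by 0.41 (-0.18 with 64 added and -0.68 with 1), and the Sesn1 call was lost after quantile normalization, after median centring, with no filter and without pair 1 or pair 3. Trib1 (0.04, adjusted p = 0.87, or 0.30 without pair 1) and Chac2 (-0.26, adjusted p = 0.080) did not pass.

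**Figure D4:**
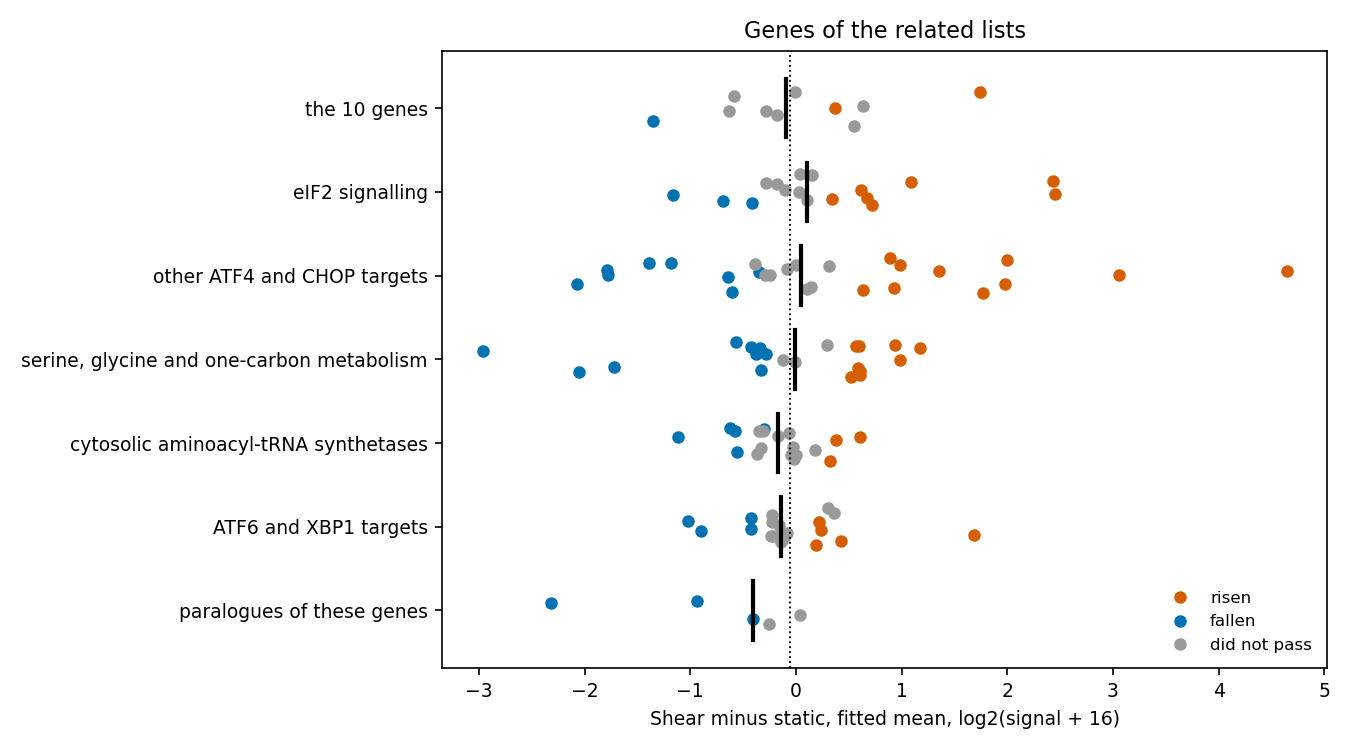
Fitted shear minus static difference on the log2(signal + 16) scale for each tested gene of the 10 and of 6 related lists, coloured by call; black ticks are list medians and the dotted line is the median of all genes tested (-0.05). Medians lie between -0.41 and 0.11 while single genes reach 4.65 (Slc7a11) and -2.96 (Aldh1l2).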

How the data were processed

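The deposited values are linear intensity, 1 signal per probe set and array, made with MAS5 per the submitters' processing notes; its version and settings are not given in the sources used here. Trimmed means of the 6 arrays were already level. Of 31099 probe sets, 57 were controls and were left out. Names came from the platform annotation: 20826 probe sets carried 1 symbol, 436 several and 9780 none. A RefSeq gene table of assembly GRCr8 matched 20758 by gene identifier and changed 0 symbols.

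Because 3 to 10 signals per array were exactly 0, log2 was taken after adding 16, and folds of dim genes are understated. A filter removed the dimmest 30% by mean log2 signal. The test of shear against static was limma's (version 3.58.1 under R 4.3.3; lmFit, eBayes with intensity trend) with the pairing number of the labels as a fixed block, since the series design calls the experiment paired, two-sided, with Benjamini-Hochberg adjustment over 21729 probe sets and a threshold of 0.05. As a check of the pairing, samples of 1 number were set against each other as deviations from their group's mean. The r over probe sets was 0.071 (pair 1), 0.065 (pair 2) and 0.063 (pair 3). These values are near 0, so the 2 arrays of a pair shared little of their deviation from the group means. For the 6 lists of related genes, 1 probe set per gene, the brightest, was used, and up to 3 risen and 3 fallen genes of each list, the largest that passed with 1 sign in all pairs, are named. Members and lists were chosen with earlier results of these data known. Percentiles, promoter matches and counts of patterns are descriptions. Plots used matplotlib 3.10.9 (Python 3.11.15).

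Other settings tried were a fit without the block, quantile normalization, arrays centred on their medians, a filter of 0 or 50%, an addition of 1 or 64 before log2, and eBayes without the trend. Each pair was also left out in turn, and lists were recounted on means of each gene's probe sets.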

Additional observations from a re-analysis of the deposited data

How the results depend on the processing

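Outside the fits with a pair left out, 95 of 104 values of the 13 probe sets and 274 of 288 of the named list genes kept their direction and their side of the threshold. The pairing did not decide the calls on the 13: without the replicate block 4 rose and 1 fell, as with it. Without the filter 2 of the 13 rose, since Atf4 and Trib3 on 1370694_at (adjusted p = 0.053) were lost. Median centring moved the median of all probe sets to 0.08 from -0.07. Of values near 0, Sesn2 on 1396901_at turned to 0.061 under quantile normalization and to 0.060 under median centring, and Shmt2 to 0.14 under median centring. Fallen one-carbon genes numbered 5, 3 and 5 under quantile normalization, median centring and no filter. Risen ATF6 and XBP1 targets numbered 2, 3 and 2 under quantile normalization, no filter and no intensity trend, and 7 fell under quantile normalization. With means over probe sets 3 synthetases fell.

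With 1 pair left out, fallen probe sets among the 13 ranged from 1 to 7, fallen eIF2 signalling genes from 2 to 5, fallen other targets from 6 to 14, fallen one-carbon genes from 3 to 10, risen synthetases from 1 to 3, fallen synthetases from 2 to 13, risen ATF6 and XBP1 targets from 2 to 5, fallen ones from 3 to 10 and risen paralogues from 0 to 1. Fold changes that turned sign ranged from -0.38 to 1.06 for Ddit3, from -0.82 to 0.16 for Asns, from -0.076 to 0.998 for Sesn2 on 1391607_at, from -0.46 to 0.13 for Sesn2 on 1396901_at, from -0.092 to 0.060 for Shmt2, from -0.80 to 0.015 for Mthfd2 and from -0.11 to 0.30 for Trib1. Each such fit has 2 pairs, and why pair 1 differs was not tested. Without detection calls, dim signals were not separated from background.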
